A study of Mus musculus with 16 samples.

Results

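Of the genes described here, Epcam, Krt19, Krt7, Sox9 and Cftr mark the bile duct epithelium of the liver, and Krt8 and Krt18 are the keratins that bile duct cells share with hepatocytes. They were taken by symbol, as 7 of the 78317 genes listed in the count table. RNA-seq had been made from homogenised whole liver of wild-type C57BL/6J mice obtained from Jackson at 6 weeks of age. Males and females were kept for 10 weeks on a normal chow (LabDiet 5053, 4.5% of calories as fat) or a high fat diet (Research Diets D12492, 60%), a standard way of causing obesity and fatty liver in this strain. Each of the 4 groups held 4 livers: female normal diet, female high fat diet, male normal diet and male high fat diet. The labels give no other allele or agent and name 1 batch for all. They do not say in so many words that each library came from a different animal, so the p-values measure only the spread between these libraries.

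Cholangiocytes are the epithelial cells that line the bile ducts. They are few in whole liver, where hepatocytes supply most of the RNA. Keratins are intermediate filament proteins that assemble as pairs of 1 type I and 1 type II chain. Krt18 (type I) and Krt8 (type II) form the filaments of hepatocytes and are known to be raised in stressed and fatty liver, where they build Mallory-Denk bodies. Krt19 (type I) and Krt7 (type II) are added to this pair in cholangiocytes and are used by pathologists to see bile ducts and ductular reactions. Epcam is an epithelial adhesion molecule, Sox9 a transcription factor of the biliary lineage that some periportal hepatocytes also carry, and Cftr the apical chloride channel that drives bicarbonate-rich secretion into bile.

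Krt8 and Krt18 are neighbours on mouse chromosome 15, on opposite strands and with 0 annotated genes between them. Krt7 lies on the same chromosome, Krt19 and Sox9 on chromosome 11, Epcam on chromosome 17 and Cftr on chromosome 6 (GENCODE M21, GRCm38). The promoter sequences of the Krt8 and Krt18 pair are shown because these were the 2 members with the highest mean TPM and both were called higher on the high fat diet in females. That of Epcam is shown as the biliary marker with the highest mean TPM. All are from RefSeq (GRCm38.p6), end before the first annotated transcript start, and run 5′ to 3′ on the gene's strand. 5 of the 7 genes had an entry, and Krt19 and Sox9 had none. Capitals mark a match to the GC box searched.

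Krt8, chr15:102004483-102004592, minus strand: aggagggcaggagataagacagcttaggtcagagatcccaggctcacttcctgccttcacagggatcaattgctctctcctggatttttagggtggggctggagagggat

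Krt18, chr15:102027966-102028179, plus strand: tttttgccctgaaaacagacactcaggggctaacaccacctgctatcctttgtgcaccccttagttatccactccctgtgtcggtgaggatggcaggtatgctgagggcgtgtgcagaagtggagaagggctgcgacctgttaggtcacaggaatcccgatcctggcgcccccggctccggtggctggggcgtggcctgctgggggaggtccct

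Epcam, chr17:87635729-87635978, plus strand: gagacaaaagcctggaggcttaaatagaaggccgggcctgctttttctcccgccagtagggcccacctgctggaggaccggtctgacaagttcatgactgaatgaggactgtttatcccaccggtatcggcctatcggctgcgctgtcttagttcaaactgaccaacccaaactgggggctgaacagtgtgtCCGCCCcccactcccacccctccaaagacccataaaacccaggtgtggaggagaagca

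Both strands were searched for motifs of the core promoter (TATAAA), of Sp1-type factors (GGGCGG, the GC box), of the NF-Y complex (CCAAT), of the stress factor AP-1 (TGANTCA) and of STAT proteins (TTCNNNGAA). The 110 bases of Krt8 and the 214 bases of Krt18 held none of these letters. The 140 and 36 bases nearest their RefSeq starts were not searched, since an annotated transcript starts farther upstream. Motifs there would be missed. The 250 bases of Epcam held GGGCGG once, on the opposite strand and 52 bases before the RefSeq start. GGGCGG was present in 32.7% of the 32851 promoters in windows of 250 bases, in 27.6% of windows of 214 and in 11.6% of windows of 110. The shorter windows were likewise the part of the 250 bases farthest from the start. The GC content was 53.6% for Krt8, 60.7% for Krt18 and 56.4% for Epcam, against medians of 50.0%, 51.9% and 52.4% over all promoters in windows of the same lengths. A match, or none, is a description of these letters only.

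Library totals ran from 22228115 to 41420589 expected counts. Of 14781 genes that passed the filter on low counts, 6 were members, and Cftr did not pass. Male high fat diet replicates 2 and 3 stood closer to each other than any other pair: the chi-square statistic per gene between them was 3.78, against 17.6 or more for the 23 other pairs within groups. A value of 1 is what sampling noise alone gives. The statistic is a mean that a few genes with very high counts can raise, so it cannot tell whether they came from 1 library. Whether they came from separate animals is not stated. For members and the genes named by rule from the pathway lists, each call that changes when they are averaged is given with that value. Calls of single cell type markers were not refitted that way. Nor were those of Atp1b1, Ccn2 and Nherf1 between the sexes on the high fat diet. The tissue label fitted the hepatocyte markers: the summed level of 6 (Alb, Ttr, Apoa1, Cps1, Asgr1, Hnf4a) was at least 48743 CPM (counts scaled to library size) in every library. In whole liver, a lower share of bile duct cells and less RNA per such cell cannot be told apart.

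The 7 genes fell into 3 ranges of level. Per transcript length, in TPM (counts scaled to length and library), Krt18 averaged 99.0 ± 38.9 (SD, n = 16) and Krt8 86.8 ± 28.1. Epcam, Sox9 and Krt19 averaged 1.32 ± 0.631, 0.991 ± 0.422 and 0.866 ± 0.488 TPM. Krt7 averaged 0.151 ± 0.0596 TPM and Cftr 0.0331 ± 0.0215 TPM. Krt18 and Krt8 overlapped in range, as did Epcam, Sox9 and Krt19, so the order within each of these sets is not larger than the spread between livers. The lowest Krt8 value (47.05 TPM) lay far above the highest value of any of the 5 biliary markers, which was 3 TPM for Epcam. In counts, a library held 2453 to 5411 for Krt8 and 1375 to 4802 for Krt18. It held 16 to 80 for Epcam, 37 to 166 for Sox9, 10 to 91 for Krt19, 5 to 24 for Krt7 and 0 to 16 for Cftr.

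**Figure D1:**
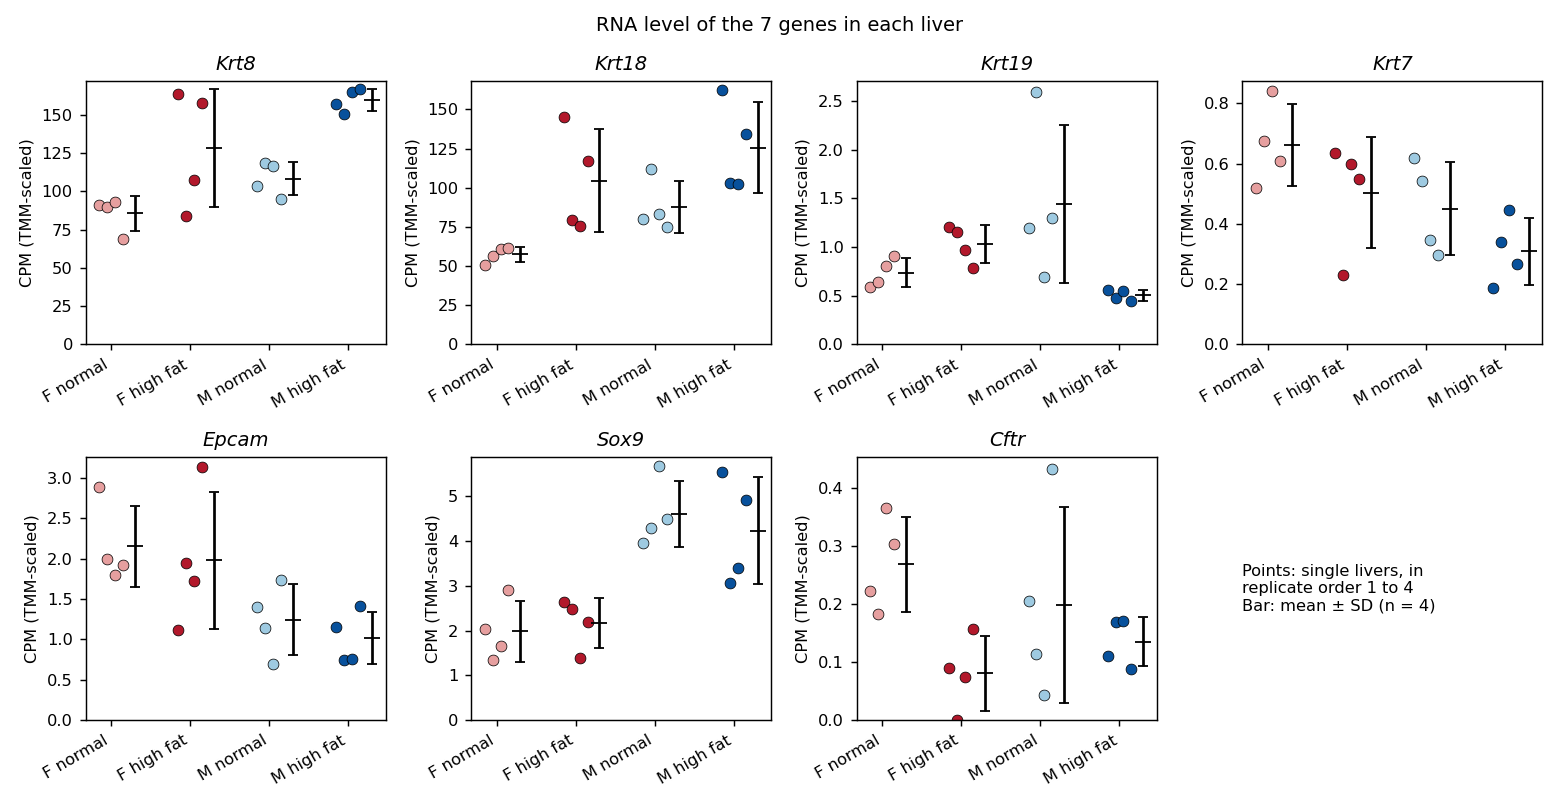
CPM scaled by TMM (vertical axes, each from 0) of the 7 genes in each of the 16 livers; points are single livers in replicate order and bars are the mean ± SD of 4. The highest Krt18 values, 145 CPM for females and 163 CPM for males, are of high fat diet livers, Krt19 is lowest in the male high fat diet livers (0.443 to 0.557 CPM), and Sox9 is higher in males than in females.

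Both hepatocyte keratins were called higher on the high fat diet in females, and Krt8 also in males. Krt8 (ENSMUSG00000049382.11) had 90.9, 89.9, 92.9 and 68.8 CPM in the female normal diet livers and 163, 84.0, 108 and 158 CPM in the female high fat diet livers. Replicate 2 of the high fat diet lay within the normal diet range and the other three above it. Krt8 rose in females by 0.58 ± 0.17 on the log2 scale (SE; 95% interval 0.23 to 0.93; edgeR adjusted p = 0.0317), from 85.6 ± 11.3 to 128 ± 38.7 CPM (SD, n = 4). In males it had 103, 119, 117 and 95.2 CPM on the normal diet and 157, 150.5, 165 and 167 CPM on the high fat diet, with no overlap. The rise in males was 0.56 ± 0.17 (0.21 to 0.91; adjusted p = 0.0369), from 108.5 ± 11.1 to 159.8 ± 7.42 CPM.

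Neither Krt8 call was stable to leaving out a library. In females it was lost in 5 of the 8 fits without 1 library (adjusted p 0.0526 to 0.116, fold change 0.45 to 0.63), being kept without high fat diet replicates 2 or 3 or normal diet replicate 3, and it was also lost with only the groups compared (0.0834). In males it was lost in all 8 such fits (0.0528 to 0.107, fold change 0.50 to 0.60) and with the near pair averaged (0.0723).

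Krt18 (ENSMUSG00000023043.8), the type I partner, had 51.0, 56.2, 61.1 and 61.6 CPM in the female normal diet livers and 145, 79.5, 75.9 and 117 CPM on the high fat diet. All 4 high fat diet livers lay above all 4 normal diet livers. The rise was 0.86 ± 0.20 (0.44 to 1.28; edgeR adjusted p = 0.0105), from 57.5 ± 4.95 to 104 ± 32.9 CPM. It was called in every alternative fit, with an adjusted p of at most 0.0368. In males Krt18 had 80.3, 112, 83.5 and 75.1 CPM on the normal diet and 163, 103, 102 and 135 CPM on the high fat diet. Here 1 normal diet liver (replicate 2) lay above the 2 lowest high fat diet livers, and the difference of 0.52 ± 0.20 (0.10 to 0.93) did not pass the test (adjusted p = 0.0983). The diet difference of Krt18 in females minus that in males was 0.34 ± 0.28 (adjusted p = 0.652), so a difference between the sexes was not shown. For Krt8 it was 0.02 ± 0.24 (95% interval −0.47 to 0.52).

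Between the sexes on the normal diet, Krt18 was lower in females by 0.61 ± 0.20 on the log2 scale (adjusted p = 0.0452, log2 fold change −0.61), with no overlap between the groups. This call was lost in all 8 fits without 1 library (adjusted p 0.0560 to 0.144), without TMM scaling (0.0704), without the filter (0.0956) and on log2(TPM + 1) (0.0954). Krt8 differed by −0.34 ± 0.17 (adjusted p = 0.174), also with no overlap. The sexes overlapped for both on the high fat diet, at −0.32 ± 0.17 for Krt8 (adjusted p = 0.181) and −0.27 ± 0.20 for Krt18 (0.355).

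The Krt8 to Krt18 ratio in TPM ran from 0.663 to 1.22 over the 16 livers. It was 1.03 ± 0.192 in females and 0.858 ± 0.0984 in males on the normal diet, and 0.848 ± 0.118 and 0.904 ± 0.19 on the high fat diet (SD, n = 4 each). The ranges of all 4 groups overlapped. Both keratins are expressed by hepatocytes. Of the 6 hepatocyte markers, 2 were called lower with diet and 0 higher in each sex, where 11.5% and 11.4% of all genes were called. They were Cps1 and Hnf4a in females and Alb and Hnf4a in males, and the medians of the 6 were −0.19 and −0.36. Hnf4a, a hepatocyte transcription factor, fell by 0.60 ± 0.12 on the log2 scale in females (log2 fold change −0.60, adjusted p = 0.00331) and by 0.47 ± 0.11 in males (−0.47, adjusted p = 0.0139). Ttr was at 0.04 ± 0.14 in females and −0.16 ± 0.14 in males, and Asgr1 at −0.04 ± 0.11 and 0.14 ± 0.11. The summed hepatocyte markers, of which Alb is by far the largest, had 98508 to 111434 CPM on the normal diet and 76676 to 92907 CPM on the high fat diet in females, and 78216 to 87681 and 48743 to 70974 CPM in males. Their part in the keratin result was not tested. Krt8-ps, the annotated pseudogene copy of Krt8, held 1.02 to 11.2 counts per library, or 0.0406% to 0.280% of those of Krt8. Krt8 also shares exon sequence with Gm36026 on the opposite strand, and whether strand was used in counting is not given in the sources used here.

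**Figure D2:**
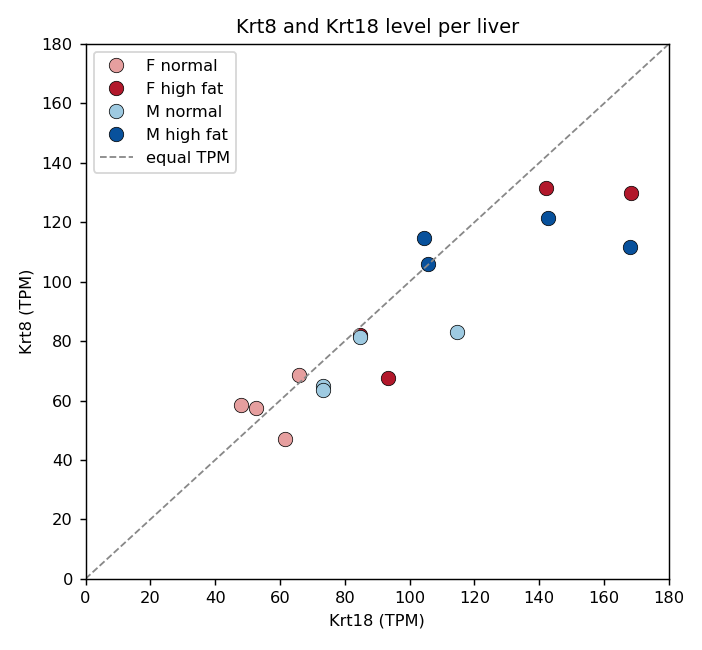
Krt8 (vertical axis) against Krt18 (horizontal axis), both in TPM, for the 16 livers, coloured by group; the dashed line marks equal TPM. Livers lie along the line from 47.05 TPM of Krt8 in a female normal diet liver to 131 TPM in a female high fat diet liver, and high fat diet livers reach the upper right.

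Of the biliary keratins, Krt19 fell with diet in males and Krt7 was called in no comparison. Krt19 (ENSMUSG00000020911.15), the type I keratin of bile ducts, had 1.19, 2.60, 0.691 and 1.30 CPM in the male normal diet livers. Males on the high fat diet had 0.557, 0.475, 0.550 and 0.443 CPM. Every high fat diet liver lay below every normal diet liver. The mean went from 1.45 ± 0.812 to 0.506 ± 0.0563 CPM, with a log2 fold change of −1.52 ± 0.35 (−2.25 to −0.78; edgeR adjusted p = 0.00930). The fall was called in every alternative fit, with an adjusted p of at most 0.0442 and a fold change between −1.74 and −1.07 when 1 library was left out. These levels rest on 16 to 91 counts a library on the normal diet and 10 to 16 on the high fat diet.

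In females Krt19 had 0.593, 0.644, 0.805 and 0.912 CPM on the normal diet and 1.21, 1.16, 0.972 and 0.785 CPM on the high fat diet. Only high fat diet replicate 4 lay within the normal diet range. The difference of 0.48 ± 0.34 (−0.23 to 1.19) did not pass the test (adjusted p = 0.385). The diet difference in females minus that in males was 2.00 ± 0.49 (0.97 to 3.02; unadjusted p = 0.000665), with an edgeR adjusted p of 0.0712. The interaction was therefore not called by edgeR, where 0.677% of all genes tested were called. It was called by DESeq2 (2.02, adjusted p = 0.0171) and without male normal diet replicate 3 (2.22, edgeR adjusted p = 0.0302). The range of adjusted p over all settings was 0.0171 to 0.145. None of the 6 members tested had a called interaction in edgeR, and Krt19 was the 1 with an unadjusted p under 0.05.

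The sex difference of Krt19 had opposite signs on the 2 diets, and the test of that difference is the interaction just given. On the normal diet Krt19 was lower in females by a log2 fold change of −0.97 ± 0.33 (adjusted p = 0.0550), which missed the threshold and was called without male normal diet replicate 3 (−1.20, adjusted p = 0.0220). On the high fat diet it was higher in females by 1.02 ± 0.35 (adjusted p = 0.0485), with no overlap. That call was lost in all 8 fits without 1 library (0.0519 to 0.111), with the near pair of male high fat diet libraries averaged (0.0796) and without the filter (0.0838).

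Krt7 (ENSMUSG00000023039.18), the type II biliary keratin, had 0.519, 0.674, 0.842 and 0.608 CPM in the female normal diet livers, and 0.634, 0.232, 0.598 and 0.549 CPM on the high fat diet. In males it had 0.618, 0.542, 0.346 and 0.298 CPM on the normal diet and 0.186, 0.339, 0.447 and 0.266 CPM on the high fat diet. The groups overlapped in both sexes. The log2 difference with diet was −0.39 ± 0.38 (−1.19 to 0.41) in females and −0.52 ± 0.41 in males, with adjusted p of 0.546 and 0.447. The sex difference was 0.55 ± 0.38 on the normal diet and 0.68 ± 0.41 on the high fat diet (adjusted p 0.353 and 0.244). These levels rest on 5 to 24 counts a library. Krt7 shares exon sequence with Gm671 on the opposite strand.

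Krt7 and Krt19 together were a small share of the keratin RNA of the 4 genes. In TPM they made up 0.735% ± 0.131 in female normal diet livers and 0.590% ± 0.187 on the high fat diet (SD, n = 4). In males the share was 0.853% ± 0.338 on the normal diet and 0.235% ± 0.0470 on the high fat diet. The highest male high fat diet liver (0.291%) lay below the lowest male normal diet liver (0.444%). Both the rise of Krt8 and the fall of Krt19 enter this share, and it was not tested.

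**Figure D3:**
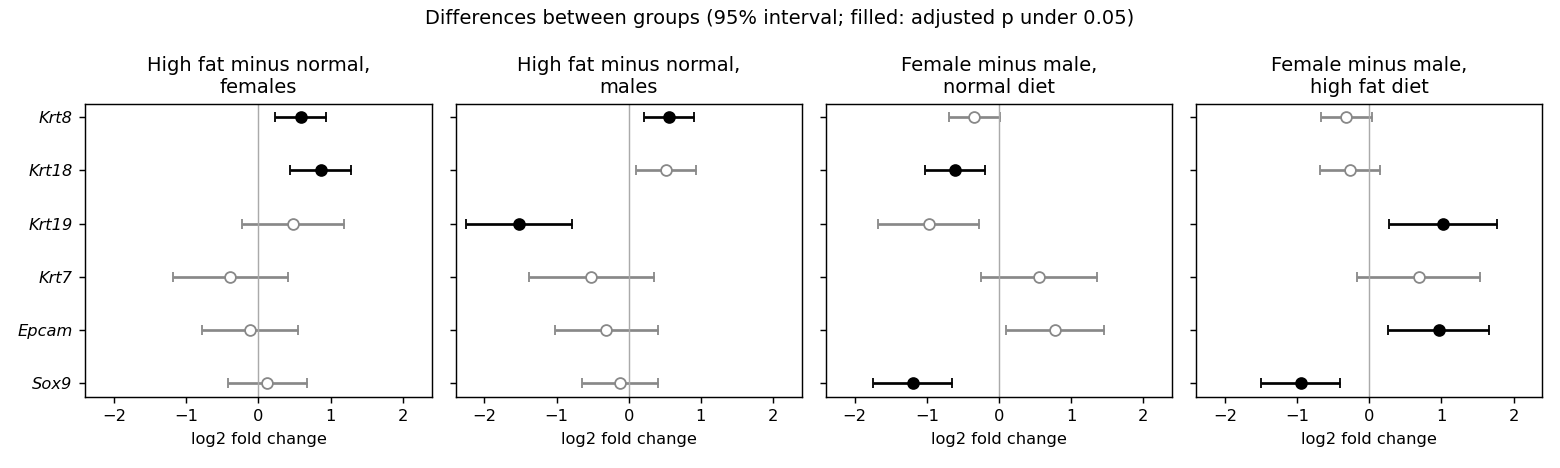
Log2 fold changes (horizontal axes) of the 6 members tested, in 4 comparisons, as points with 95% intervals; filled points had an edgeR adjusted p under 0.05. Krt18 and Krt8 lie above 0 with diet in females, Krt8 above 0 and Krt19 below 0 with diet in males, and Sox9 below 0 in both comparisons of females with males.

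Of the 6 members tested, 2 were called higher and 0 lower with diet in females (Krt8 and Krt18), where 11.5% of all genes were called. With diet in males 1 was called higher (Krt8) and 1 lower (Krt19), where 11.4% were called. On the normal diet 0 were called higher in females than in males and 2 lower (Sox9 and Krt18), against 15.7% of all genes called. On the high fat diet 2 were called higher (Krt19 and Epcam) and 1 lower (Sox9), against 20.4%. The median log2 difference of the 6 was 0.30 and −0.22 with diet in females and males, −0.48 between the sexes on the normal diet and 0.21 on the high fat diet. The median of all genes tested was within 0.011 of 0 in each of these.

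Epcam (ENSMUSG00000045394.10) was higher in females than in males on the high fat diet at the edge of the threshold, and its differences with diet did not pass the test. It had 2.89, 1.99, 1.79 and 1.93 CPM in the female normal diet livers and 1.40, 1.14, 0.691 and 1.73 CPM in the male ones. These groups did not overlap, but the difference of 0.77 ± 0.32 (SE) missed the threshold (edgeR adjusted p = 0.113). Females on the high fat diet had 1.12, 1.95, 1.72 and 3.14 CPM, and their male counterparts 1.15, 0.747, 0.756 and 1.42 CPM. Here the groups overlapped through female replicate 1, and the difference of 0.96 ± 0.33 was just under the threshold (adjusted p = 0.0492). The call was lost in 6 of the 8 fits without 1 library (0.0558 to 0.185), all but those without female replicate 1 or male replicate 4. It was also lost with male replicates 2 and 3 averaged (0.113) and with only the groups compared (0.0848). With diet the difference was −0.12 ± 0.32 (−0.79 to 0.55) in females and −0.31 ± 0.34 in males (adjusted p 0.840 and 0.597). The sign in females turned to 0.05 on log2(TPM + 1) and to 0.07 without TMM, scalings under which the median of all genes moved by 0.149 and 0.192.

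Sox9 (ENSMUSG00000000567.6) was the member with the clearest sex difference, and it ran opposite to Epcam. It had 2.04, 1.35, 1.65 and 2.91 CPM in female and 3.95, 4.28, 5.66 and 4.49 CPM in male normal diet livers. Its high fat diet values were 2.63, 2.48, 1.38 and 2.20 CPM in females, against 5.54, 3.06, 3.40 and 4.91 CPM in males. The lowest male liver lay above the highest female liver on each diet. On the normal diet the means were 1.99 ± 0.679 in females and 4.60 ± 0.743 CPM in males, with a log2 fold change of −1.20 ± 0.26 (edgeR adjusted p = 0.00468). This was called in every alternative fit, with an adjusted p of at most 0.0214. The fold change on the high fat diet was −0.95 ± 0.26 (adjusted p = 0.0154). It was lost without female replicate 3 (0.0503), without male replicate 1 (0.0571) and on log2(TPM + 0.1) (0.0587). Diet moved Sox9 by 0.13 ± 0.26 in females and −0.12 ± 0.25 in males (adjusted p 0.799 and 0.798), with 95% interval −0.43 to 0.68 in females.

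Cftr (ENSMUSG00000041301.16) was at the limit of detection. The female normal diet livers held 6, 6, 10 and 12 counts and the female high fat diet livers 3, 0, 2 and 4, with no overlap. A count of 0 in a library allows up to 3 counts. In males the counts were 5, 4, 1 and 16 on the normal diet and 3, 5, 5 and 2 on the high fat diet, which overlap widely. The female groups held 34 and 9 counts in all, at 0.269 and 0.0806 CPM. An exact two-sided permutation test on CPM gave p = 0.0286 in females, the smallest that 4 against 4 allows, and an adjusted p of 0.114 over the 4 comparisons. In males the exact permutation p was 0.657. Between the sexes it was 0.457 on the normal diet and 0.171 on the high fat diet. Without a filter on low counts edgeR gave −1.71 ± 0.79 in females (adjusted p = 0.275). Cftr shares exon sequence with Gm15592 on the opposite strand.

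Members were also compared liver by liver, after group means were removed. Over the 21 pairs of members and 16 livers, 0 correlations were called and 0 had an unadjusted p under 0.05. The highest was that of Krt8 with Krt18 (Pearson r = 0.63, permutation p = 0.0983; Spearman rho = 0.64, p = 0.0543; adjusted p 0.516 and 0.473), and r was 0.71 without the 2 livers farthest from the median of Krt8. The lowest was that of Krt7 with Sox9 (r = −0.52, permutation p = 0.0617, adjusted p = 0.516). Within these groups the pairing of Krt19 with Krt7 was r = 0.18 (permutation p = 0.611).

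The genes whose log2 CPM resembled each member most over the 16 livers are given as a description, with group differences left in and no test. For Krt8 they were Haus8 (r = 0.93), Ubd (0.93) and Actb (0.92), and for Krt18 Parp3 (0.93), Kctd17 (0.92) and Ocstamp (0.91). For Sox9 they were Cyp2d41-ps (0.93), Sec22b (0.93) and Gga3 (0.92). For Epcam they were Epb41l2 (0.86), Sptb (0.85) and Cd47 (0.84). For Krt19 they were Slc25a22 (0.82), Acbd6 (0.80) and Slco2a1 (0.78), and for Krt7 Ascc1 (0.85), Smyd2 (0.83) and Ddrgk1 (0.83). The values for Cftr were lower (Mrps5 0.77, Gm14097 0.73, Card19 0.73).

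Other markers of bile ducts gave the background for Epcam, Krt19, Krt7 and Sox9. Of 16 listed, 13 were tested. In high fat diet livers 4 were called higher in females and 0 lower, with a median log2 difference of 0.23, in the comparison where 20.4% of all genes were called. Prom1, a membrane protein of progenitor and ductal cells, differed most, with 3.63 ± 0.792 CPM in females and 1.04 ± 0.418 in males (1.80 ± 0.33, edgeR adjusted p = 0.00135). Cldn7, a tight junction protein, differed by 1.48 ± 0.50 (0.0443) and Dcdc2a, a ciliary protein, by 0.96 ± 0.30 (0.0301). Both calls were lost in most fits without 1 library: Cldn7 in all but that without male replicate 3 (up to 0.112), Dcdc2a in all but those without female replicate 1 or male replicate 3 (up to 0.0788). Cldn7, at 0.366 CPM in females and 0.127 CPM in males, was also lost with male replicates 2 and 3 averaged (0.0504) and with DESeq2 (0.0586). It was lost too without the filter (0.133), on log2(TPM + 1) (0.134) and on log2(TPM + 0.1) (0.136). Dcdc2a was also lost with only the groups compared (0.0590). The other call was Atp1b1, a sodium pump subunit.

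On the normal diet 2 of the 13 were called higher in females and 0 lower, with a median of 0.14, beside 15.7% of all genes. Pkhd1, the fibrocystin of cholangiocyte cilia, had 7.65 ± 1.87 CPM in females and 3.82 ± 0.916 in males (1.00 ± 0.23, edgeR adjusted p = 0.00629). Dcdc2a differed by 1.07 ± 0.31 (0.0247), lost in 5 of 8 fits without 1 library (up to 0.0729), being kept without female replicates 1 or 2 or male replicate 4. That call was also lost on log2(TPM + 1) (0.120) and log2(TPM + 0.1) (0.0767). Sox9 was called lower in females on both diets, and 0 of the 13 were called lower on either. With diet in males 1 of the 13 was called lower and 0 higher, beside 11.4% of all genes. It was Atp1b1, from 92.6 ± 17.95 to 42.8 ± 4.14 CPM (−1.11 ± 0.15, adjusted p = 0.000214).

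**Figure D4:**
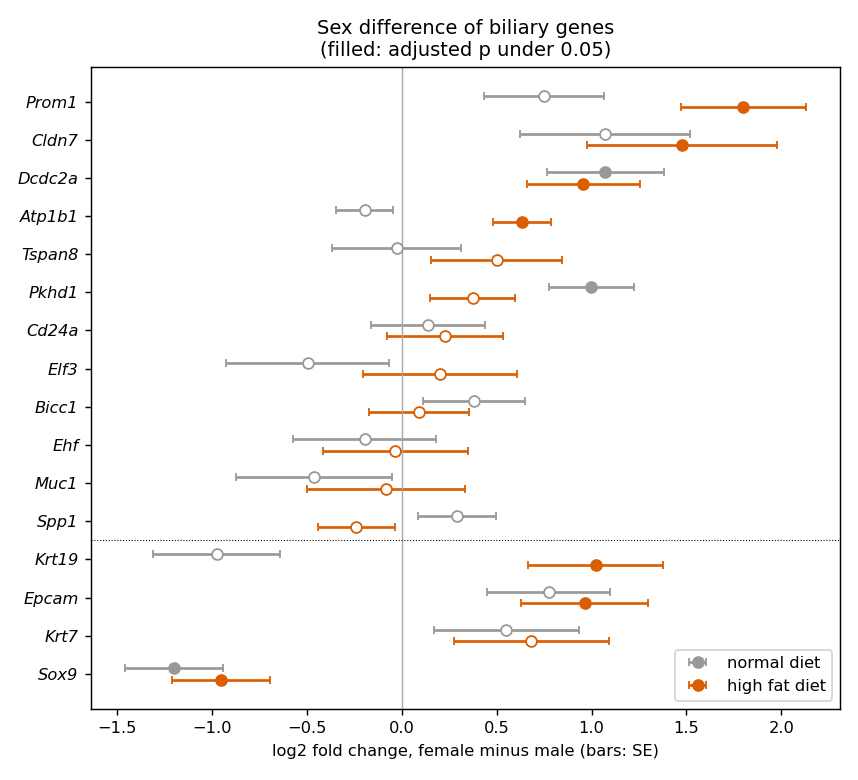
Log2 fold change of females against males (horizontal axis, bars are the SE) on the normal and on the high fat diet, for 12 of the 13 other biliary markers tested (above the dotted line) and 4 members (below it); filled points had an edgeR adjusted p under 0.05. Sox9 lies below 0 on both diets, Krt19 on opposite sides of 0, and Prom1 farthest above 0 at 1.80.

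Among 13 other keratins 2 were tested, and none was called in any comparison. The share of all genes called ran from 0.677% for the interaction to 20.4% between the sexes on the high fat diet. Krt23, a type I keratin of injured liver, had 2.43 to 19.2 CPM in female high fat diet livers and 1.96 to 4.78 CPM in the normal diet ones (1.13 ± 0.88, edgeR adjusted p = 0.442). Krt10 differed with diet by 0.04 ± 0.34 in females and 0.18 ± 0.36 in males. Keratin filaments are anchored at cell junctions by plakins and desmosomal proteins, of which 8 of 10 listed genes were tested. None was called with diet in either sex, where 11.5% and 11.4% of all genes were called. Between the sexes Dst and Plec, both cytolinkers, were lower in females. So was Krt18 on the normal diet, a call lost in all 8 fits without 1 library. Dst had 58.6 ± 11.4 CPM in females and 102 ± 22.3 in males there (−0.80 ± 0.18, adjusted p = 0.00617), and −0.85 ± 0.18 on the high fat diet (0.00347). Plec differed by −0.74 ± 0.15 on the normal diet (0.00366) and by −0.49 ± 0.15 on the high fat diet (0.0320). The latter was lost without TMM scaling (0.105) and in 5 of 8 fits without 1 library (up to 0.104), all but those without female replicate 2 or male replicates 2 or 3. It was also lost on log2(TPM + 1) (0.212), on log2(TPM + 0.1) (0.238) and with only the groups compared (0.0691). Dsc2, a desmosomal cadherin, was higher in females on the normal diet (0.59 ± 0.16, adjusted p = 0.0189), which was lost without female replicate 2 (0.0616) and on log2(TPM + 1) (0.0507).

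Sox9 is a target of Notch and YAP signalling in biliary cells, and all 13 genes listed for these pathways were tested. With diet in females 2 were called higher and 2 lower, with a median of 0.36, beside 11.5% of all genes called. Hes1, a Notch target, rose from 3.74 ± 0.844 to 6.50 ± 1.70 CPM (0.80 ± 0.19, edgeR adjusted p = 0.0125). The YAP target Ccn1 rose by 0.94 ± 0.24 (0.0171), lost without high fat diet replicate 4 (0.0620), while Ccn2, also a YAP target, fell from 8.71 ± 1.61 to 2.80 ± 0.693 CPM (−1.64 ± 0.29, 0.00204). Wwtr1 was the other gene called lower. In males 3 were called higher and 0 lower, with a median of 0.15, beside 11.4% of all genes. These were the Notch ligand Jag1 (1.00 ± 0.24, 0.0135), the Notch target Heyl (1.31 ± 0.34, 0.0187) and Wwtr1, which encodes the YAP partner TAZ (0.70 ± 0.13, 0.00177). Jag1 was lost without high fat diet replicate 4 (0.0561), and Heyl without high fat diet replicate 2 or normal diet replicate 3 (0.0602 and 0.0595) and with replicates 2 and 3 averaged (0.0541). Heyl was also lost on log2(TPM + 1) (0.0591).

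Wwtr1 was the 1 gene of this list with a called interaction (−1.18 ± 0.18, edgeR adjusted p = 0.00514), beside 0.677% of all genes, and it was called in every alternative fit. Between the sexes on the high fat diet 1 was called higher in females and 3 lower, with a median of 0.17, beside 20.4% of all genes. Hes1 was higher by 1.07 ± 0.20 (0.00132), and Jag1 and Wwtr1 lower by log2 fold changes of −1.10 ± 0.25 (0.00487) and −1.09 ± 0.13 (1.86e-05). Ccn2 was the third called lower. On the normal diet 1 was called lower, Yap1 (−0.46 ± 0.10, 0.00629), and 0 higher, with a median of 0.091, beside 15.7% of all genes. The relation of these genes to Sox9 was not tested.

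Of 12 genes for CFTR partners and ductal secretion, 11 were tested. Car2, a carbonic anhydrase that supplies bicarbonate, was higher in females on the normal diet (10.6 ± 1.18 against 4.25 ± 0.742 CPM; 1.31 ± 0.19, edgeR adjusted p = 0.000215) and on the high fat diet (1.19 ± 0.20, 0.000535). On each diet 2 were called higher, Car2 and Aqp1, and 2 lower. The lower ones were Adcy6 on both, Sstr2 on the normal diet and Nherf1, a scaffold of CFTR, on the high fat diet. Of all genes, 15.7% were called on the normal and 20.4% on the high fat diet. The water channel Aqp1 was higher in females on the high fat diet (0.39 ± 0.12, 0.0248), and was lost with only the groups compared (0.0650) and without female replicate 2 or 4 or male replicate 3 (up to 0.0740). Adcy6, an adenylyl cyclase that feeds CFTR activation, was lower in females by −0.49 ± 0.15 (0.0311) on the normal and −0.46 ± 0.15 (0.0338) on the high fat diet. These were lost in 6 and 5 of 8 fits without 1 library (up to 0.124 and 0.119), and the second also with male replicates 2 and 3 averaged (0.106) and without TMM (0.113). Both were lost on log2(TPM + 1) (0.0844 and 0.242) and on log2(TPM + 0.1) (0.0769 and 0.263). The first was kept without female replicate 3 or male replicate 2, the second without female replicate 2 or male replicates 1 or 4. The somatostatin receptor gene Sstr2 was lower in females on the normal diet, with 0.0307 to 0.203 CPM against 0.412 to 1.30 CPM in males (−3.09 ± 0.85, adjusted p = 0.0198). It was lost in 3 of 8 fits, those without female replicate 1 or 2 or male replicate 3 (up to 0.0713). With diet, the anion exchanger gene Slc26a6 rose in females from 0.598 ± 0.151 to 1.42 ± 0.583 CPM (1.24 ± 0.36, 0.0320). It was the 1 of the 11 called in females, and 0 were called in males, beside 11.5% and 11.4% of all genes. That rise was lost in 5 of 8 fits, all but those without high fat diet replicates 2 or 3 or normal diet replicate 1 (up to 0.112).

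Other cells that carry simple keratins or Epcam were followed by their own markers. The 5 mesothelial genes (Msln, Upk3b, Upk1b, Wt1, Lrrn4) summed to 1.76 to 3.597 CPM in female and 0.913 to 2.02 CPM in male normal diet livers. On the high fat diet they summed to 1.39 to 3.55 CPM in females and 0.595 to 1.36 CPM in males. Higher sums in females, as Epcam had, were not particular to these genes. The 6 T and B cell genes summed to 2.18 to 3.43 CPM in female and 0.677 to 1.89 CPM in male normal diet livers. Their sums were 3.10 to 6.63 and 1.24 to 2.78 CPM on the high fat diet. The 5 stellate genes summed to 143 to 152 CPM in female and 96.2 to 131 CPM in male normal diet livers. Their sums overlapped on the high fat diet, at 133 to 184 CPM in females and 125 to 156 CPM in males. Of the mesothelial genes, Upk3b was called higher in females on the high fat diet (1.51 ± 0.49, edgeR adjusted p = 0.0355) and missed the threshold on the normal diet (0.0548). The part of these cell types in the Epcam and Krt19 sex differences was not tested. The 7 pancreatic acinar genes summed to 28.4 and 11.2 CPM in male high fat diet replicates 2 and 3. Krt19 in these 2 livers was 0.475 and 0.550 CPM, Krt7 was 0.339 and 0.447 CPM, and Cftr held 5 counts in each. Krt7 was 0.186 and 0.266 CPM and Cftr held 3 and 2 counts in replicates 1 and 4 of that group. Epcam, Sox9 and Krt18 were lower in replicates 2 and 3 than in replicates 1 and 4. In female normal diet replicate 4 the acinar genes summed to 6.16 CPM, with 0 of the 7 at 0. Krt19, Sox9 and Krt8 were 0.912, 2.91 and 68.8 CPM in that liver, and Cftr held 12 counts. Every other library had an acinar sum of at most 0.818 CPM. Cpa1, Cela3b and Pnlip were at 0 in 13 of the 16 libraries. The averaged setting, which counts male high fat diet replicates 2 and 3 as 1, left the fall of Krt19 in males called. That setting keeps the acinar RNA of both libraries, so the part of acinar RNA in the fall was not tested. Of the intestinal genes, Cdx2 was at 0 in all 16 libraries, Cdx1 in 15 and Cdh17 in 11. The other 2 were present: Fabp2 was called higher with diet in females (1.06 ± 0.29, edgeR adjusted p = 0.0302) and males (1.10 ± 0.29, 0.0258), and Slc5a1 higher in females than in males on the normal (1.16 ± 0.27, 0.00699) and high fat diet (1.29 ± 0.27, 0.00320). The part of these in the keratin and sex results was not tested.

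The portal fibroblast genes (Thy1, Fbln2, Eln, Mfap4, Gli1), of cells that surround bile ducts, summed to 2.45 to 4.08 CPM in female and 2.51 to 3.80 CPM in male normal diet livers. On the high fat diet they summed to 3.25 to 6.55 CPM in females and 2.48 to 4.07 CPM in males. With diet 1 of the 4 tested was called in females and 0 in males, beside 11.5% and 11.4% of all genes. It was Eln, higher on the high fat diet (1.504 ± 0.455, edgeR adjusted p = 0.0402), with overlap between the groups. Between the sexes 1 of the 4 was called on each diet, beside 15.7% of all genes on the normal and 20.4% on the high fat diet. The median log2 difference was −0.055 on the normal and 0.66 on the high fat diet. The gene called between the sexes was Thy1, higher in females by 1.03 ± 0.33 (edgeR adjusted p = 0.0390) and 1.45 ± 0.32 (0.00434). Fbln2 and Eln were at −0.38 ± 0.33 and −0.33 ± 0.47 on the normal diet and passed the test on neither. Their part in the sex differences was not tested.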

How the data were processed

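The deposited table of expected counts per gene, made by the authors with STAR and RSEM on GRCm39 per the submitters' processing notes, and their deposited TPM table were used. Tool versions, annotation and strand setting are not given in the sources used here. Expected counts were rounded (4.89% of entries were not whole). Genes passing edgeR's filterByExpr over the 4 groups were tested with edgeR 4.0.16 (R 4.3.3): TMM, robust quasi-likelihood fit of all 16 libraries with 1 mean per group, two-sided, Benjamini-Hochberg adjusted over all genes tested, called under 0.05. CPM are counts scaled to TMM-scaled library totals. Symbols came from the Ensembl identifiers. Alternatives were DESeq2 1.42.0, other scalings, no filter, limma 3.58.1 on log2(TPM + 1) or log2(TPM + 0.1), a replicate block, only the groups compared, male high fat diet replicates 2 and 3 averaged, and leaving out each library; the settings for Cftr were chosen after its counts were seen. Pairs of members were tested with 100000 permutations within groups. The edgeR fit was tested on simulated data.

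The members and gene lists were chosen with earlier results of these data known. Named were all 7 members and, from each pathway list and comparison, up to 3 called genes with the largest absolute fold change. For each member the 3 genes with the highest correlation over the livers, the summed cell type markers and pseudogene copies were also named. Atp1b1, Ccn2 and Nherf1 on the high fat diet, Aqp1 on the normal diet, Wwtr1 with diet in females, Krt10, Krt23 and single cell type markers lie outside that rule and were chosen after their values were seen. Epplk1 was not matched. Of the other biliary markers, 1 gene is not reported here. Intervals and p-values cover these libraries only, and counts were made without molecular identifiers.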

Additional observations from a re-analysis of the deposited data

Results flagged for a closer look

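Krt8 in female normal diet replicate 4 had 68.8 CPM, far below the other 3 livers of that group (89.9 to 92.9 CPM). Its gap was 0.872 of the group's range, above Dixon's limit for 4 samples. Chance gives such a value in about 1 of 20 groups, and 36 groups were screened. Without this liver the diet difference of Krt8 in females was 0.51 with an adjusted p of 0.0907 (edgeR). The diet difference of Wwtr1 was 1.18 lower in females than in males on the log2 scale (interaction −1.18 ± 0.18, edgeR adjusted p = 0.00514).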

How the results depend on the processing

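Among the members, the calls that no alternative ended were the rise of Krt18 in females, the fall of Krt19 in males and the lower Sox9 of females on the normal diet. With diet in females, 2 members were called, against 1 with only the groups compared and 1 with a replicate block, where Krt8 reached 0.0503, and 1 to 2 when 1 library was left out. With diet in males, 2 were called, against 1 with the replicate block (Krt8 0.0522), 1 with the near pair (male high fat diet replicates 2 and 3) averaged and 1 in every fit without 1 library. For the interaction, 0 were called, against 1 with DESeq2 and 0 to 1 without 1 library. On the normal diet 2 members differed between the sexes, against 1 without TMM, without the filter, on log2(TPM + 1), on log2(TPM + 0.1) and with the replicate block (Krt18 0.0506), and 1 to 2 without 1 library. On the high fat diet 3 differed, against 1 with that pair averaged and 0 to 2 without 1 library, with 0 reached without female replicate 3 or male replicate 1. Krt19 on the high fat diet was also lost with the replicate block (0.0583). The cause of these changes was not tested.

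Whether the replicate numbers pair the livers was not tested. Of 16 pairs with the same number 3 had a correlation over 0.1 (range −0.16 to 0.18), and 6 livers correlated best with their own number. The correlations between the sexes were all positive, at 0.022 to 0.18. Those between the diets ran from −0.16 to 0.14. The pair counts stayed at 0 of 21 in all 19 alternatives. Epcam with diet in females turned to 0.071 without TMM, 0.054 on log2(TPM + 1) and 0.055 on log2(TPM + 0.1). Without 1 library the range was −0.43 to 0.080 for Epcam and −0.0072 to 0.40 for Sox9 with diet in females, and −0.29 to 0.0055 for Sox9 with diet in males. For the interaction it was −0.12 to 0.39 for Epcam, −0.025 to 0.38 for Krt7 and −0.11 to 0.18 for Krt8. The Cftr difference with diet in males ranged from −0.116 to 0.0143 CPM. The Krt8 to Krt18 ratio taken in CPM was 1.51, 1.24, 1.25 and 1.32 in female normal, female high fat, male normal and male high fat diet livers. Krt19, Krt7, Epcam and Cftr had at most 91 counts a library, and counting error was not separated from the spread between livers.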
